A study of Triticum aestivum with 4 samples.

Results

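Of the 2811 wheat genes named in the authors' lists of differentially methylated regions, 4 bear names that tie them to seed dormancy or to abscisic acid, the plant hormone that keeps seeds dormant. They are 9-cis-epoxycarotenoid dioxygenase 2A (TraesCS5A02G374000), ABA Overly-Sensitive 5 (TraesCS6D02G178700), MFT-3B-1 (TraesCS3B02G010100) and MFT-3B-2 (TraesCS3B02G007400). They were chosen by the description given for each gene, and each had 1 listed region, so 4 of 3119 regions are treated here, 2 in the CpG list and 2 in the CHG list. None was in the list for CHH, where H is A, C or T. Both libraries had a level for 3 of the 4 regions.

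The ultrasound group consisted of 7-day-old seedlings of the winter wheat line SE15, grown from dry seeds (13.6% water) that had been sonicated at 30 kHz and 70 W for 5 min, 4 cm from the ultrasound head. The control group consisted of seedlings of the same line and age from seeds that were not sonicated. Both groups started from 100 seeds and germinated in the dark at 20 °C. The design speaks of 3 biological samples per group and the labels name 2 libraries per group, 1 of which was analysed here; the levels come from ultrasound library 1 and from a library marked K1, which was taken as control library 1; the labels do not explain the letter K. With 1 library per group each level is a single measurement, no replicate check and no test of treatment is possible, and higher or lower refers to ultrasound library 1 compared with control library 1. The levels are the authors' percent methylation per region, their read depth is unknown, and no interval can be put on them. Methylation of selected regions does not show which tissue was sampled, so the tissue label was not checked.

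Abscisic acid is made from carotenoids. It builds up in the maturing seed and holds back germination, and its level falls as a seed leaves dormancy. Proteins of the MFT group (named for MOTHER OF FT AND TFL1) belong to the phosphatidylethanolamine-binding family and act in seeds, where in Arabidopsis they link abscisic acid and gibberellin signals and in wheat a member has been tied to dormancy and to sprouting before harvest. In plant genomes CpG methylation is copied onto the new DNA strand after replication, and CHG methylation is kept by enzymes that read a histone mark.

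The CHG region of 9-cis-epoxycarotenoid dioxygenase 2A and the CpG region of ABA Overly-Sensitive 5 were less methylated after ultrasound. So were 78.2% of the CHG and 71.7% of the CpG regions that had both levels. The CpG region of MFT-3B-1 was more methylated, as were 28.3% of CpG regions. The differences, ultrasound minus control, were -23.7 percentage points at 9-cis-epoxycarotenoid dioxygenase 2A, -45.5 points at ABA Overly-Sensitive 5 and 33.7 points at MFT-3B-1. All 3 exceeded 10 points, as did 91.0% of the CpG and 60.4% of the CHG regions that had both levels, so passing that size does not set them apart. Both members in CpG also exceeded 25 points, as 48.3% of CpG regions did, while 9-cis-epoxycarotenoid dioxygenase 2A did not and 9.76% of CHG regions did. Every region had entered the lists through a selection on these same libraries, so the differences describe the regions and support nothing further.

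**Figure D1:**
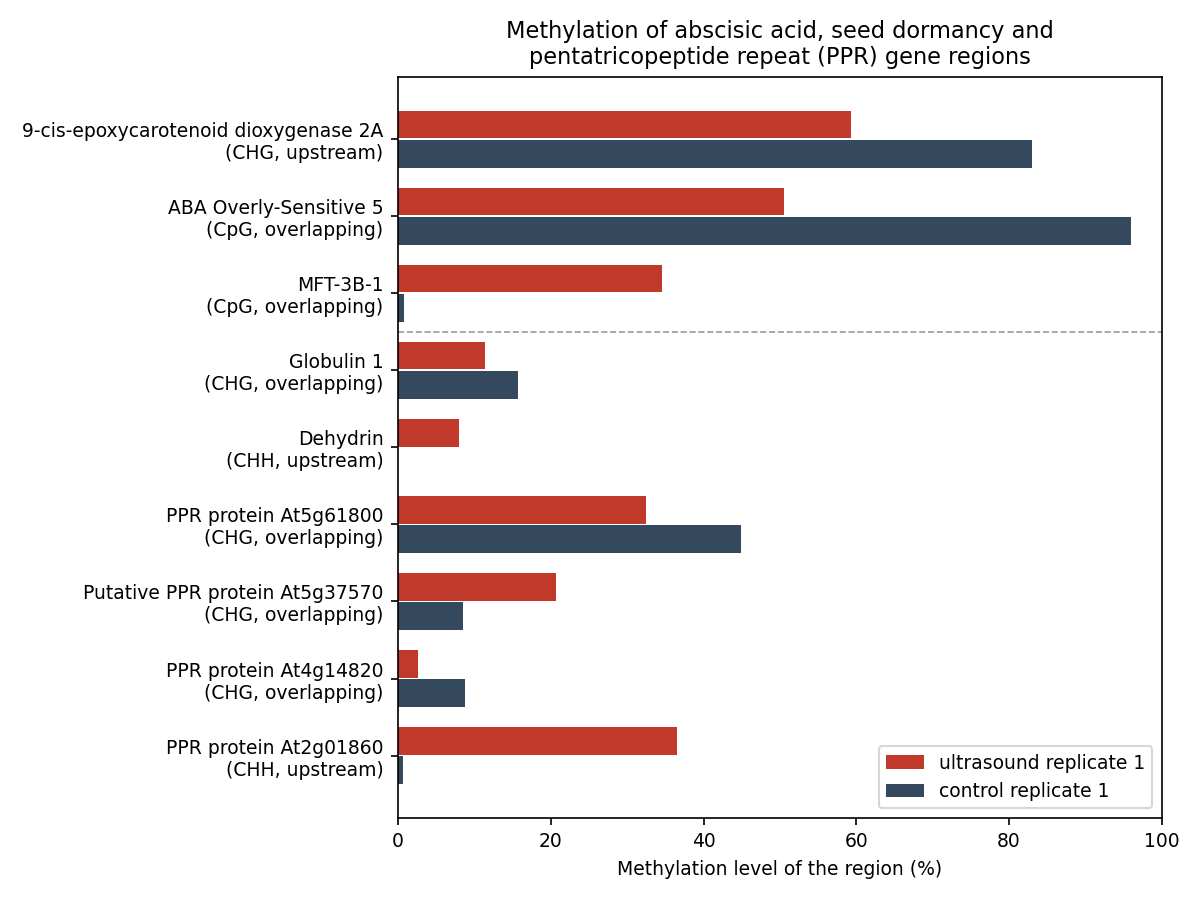
Methylation level in percent (horizontal axis) of each described region, with the ultrasound library in red above the control library in dark blue; each bar is 1 library. Above the dashed line stand 9-cis-epoxycarotenoid dioxygenase 2A (59.3% and 83.0%), ABA Overly-Sensitive 5 (50.5% and 96.0%) and MFT-3B-1 (34.5% and 0.833%), and below it the other genes matched by words for abscisic acid, dormancy and pentatricopeptide repeats (PPR). The dehydrin region is listed at 0% in the control library.

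9-cis-epoxycarotenoid dioxygenase 2A belongs to the enzyme family that cleaves carotenoids in the committed step of abscisic acid synthesis. Its CHG region of 853 bp on chromosome 5A (572024679 to 572025531 in the authors' coordinates, whose genome build is not given in the sources used here) lay 1400 bp upstream of the gene on the plus strand. Its level was 59.3% in the ultrasound library, against 83.0% in the control library. This was among the most heavily methylated CHG regions listed: 4 of 1557 regions, itself included, had a control level at least as high, and 41 had an ultrasound level at least as high. The 6 CHG regions with a control level above 80%, this region included, were all lower after ultrasound. Their median difference was -28.0 points, with a range of -46.0 to -17.0 points. Above 70%, 11 of 12 were lower and 1 was higher, by 18.4 points, with the same median. A region with a high control level has less room to be higher than to be lower, and the part of this in these directions was not tested. The median over all CHG regions with levels was -8.87 points. Among all CHG regions, 78.2% were lower, and among CHG regions upstream of their gene 214 of 292 (73.3%) were lower.

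The size of this decrease depended on the scale. In percentage points it was the 108th most negative of 1557 CHG differences, so 6.94% of regions had a difference as negative or more so. By the log2 ratio of the levels (with 1 point added to each) it was -0.48, and 66.3% of regions had a ratio as low or lower. Among the 19 CHG regions whose mean level lay within 10 points of its own, it was the 4th most negative. The 3 CHG regions nearest to it in both levels were assigned to genes without a description. They are TraesCS4D02G181200 (64.0% in the ultrasound library and 81.0% in the control library), TraesCS7B02G445200 (57.5% and 88.3%) and TraesCS3A02G182200 (60.3% and 71.0%). All 3 were lower, with the last of them 12.1 points away in the plane of the 2 levels.

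ABA Overly-Sensitive 5 takes its name from an Arabidopsis gene for a mitochondrial pentatricopeptide repeat protein, which acts in splicing of a mitochondrial transcript and whose loss makes that plant more sensitive to abscisic acid. The wheat gene was named by projection from Arabidopsis, per the authors' lists. Its CpG region of 452 bp (6D, 187500574 to 187501025) overlapped the gene on the minus strand. The level was 50.5% in the ultrasound library, against 96.0% in the control library. The control level was near full methylation, and 19 of 480 CpG regions with both levels, itself included, had a control level as high or higher.

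That decrease was the 22nd most negative of 480 CpG differences, in a context where 71.7% of regions were lower (95% exact binomial interval 67.4 to 75.7, over regions) and the median difference was -18.3 points. CpG regions with a control level above 90%, this region included, were lower in 39 of 44 cases, with a median difference of -24.4 points. Such regions have no room to be much higher, and the 5 that were higher differed by at most 9.60 points. At control levels of 40 to 90%, 188 of 238 CpG regions were lower, with a similar median of -24.0 points. Whether the control level bears on the direction was not tested. On the log2 ratio scale, the ABA Overly-Sensitive 5 value of -0.91 had 41.2% of CpG regions at or below it. Among the 73 CpG regions of similar mean level, within 10 points, its difference was the 3rd most negative. The region was also short, since 562 of 634 listed CpG regions were at least as long. Of the 56 CpG regions that were no longer than it and had levels, 30 were lower and 26 higher, with a median difference of -6.79 points. The 3 regions nearest to it in both levels lay in or near other genes. The first overlapped TraesCS1B02G180900, without a description (53.5% in the ultrasound library and 94.1% in the control library). The next lay 1441 bp downstream of a Type-b avenin-like protein gene (TraesCS4A02G453800, 54.1% and 95.8%), of a family of grain storage proteins. The last lay 1854 bp upstream of TraesCS6D02G375100, also without a description (54.1% and 93.8%).

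**Figure D2:**
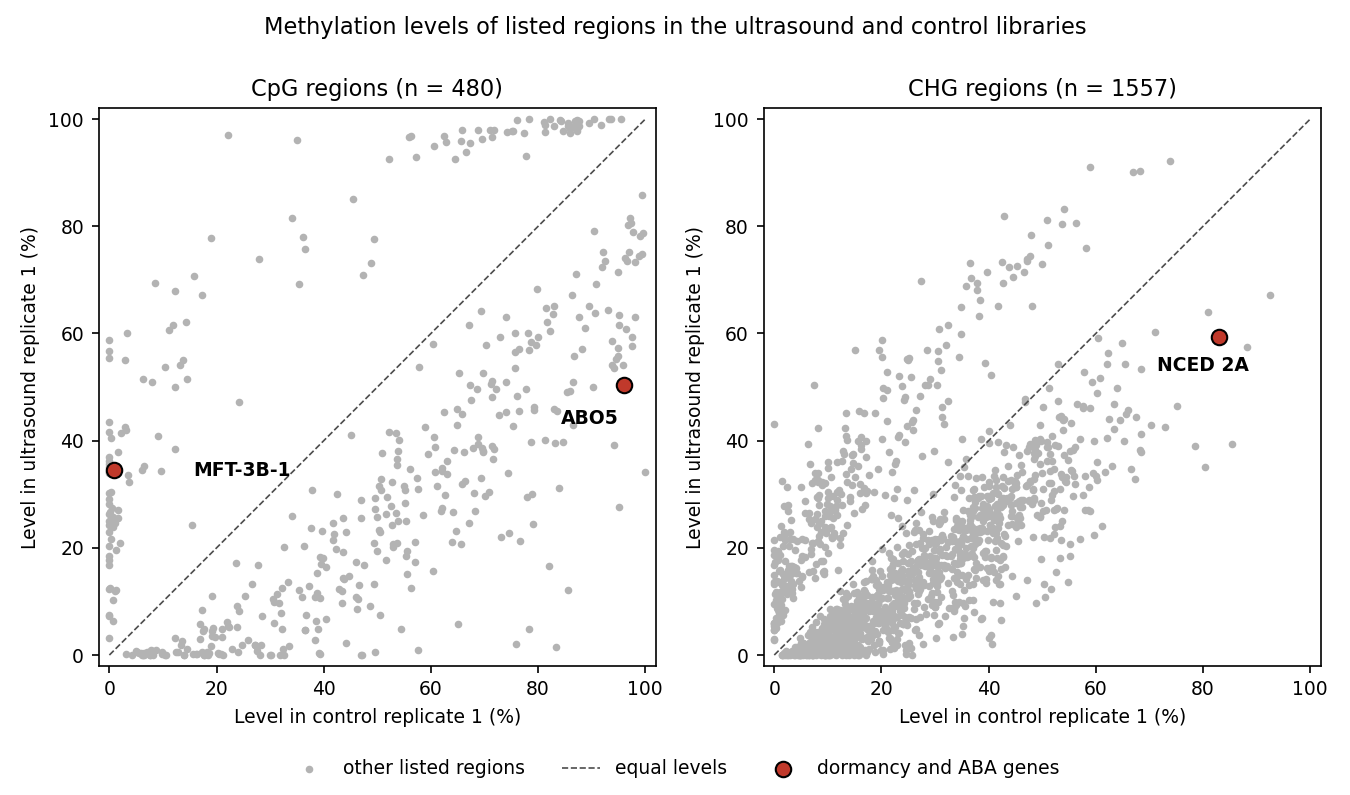
Level in ultrasound library 1 (vertical axis, %) against control library 1 (horizontal axis, %) for all listed CpG and CHG regions with both levels, 1 point per region; the dashed line marks equal levels. ABA Overly-Sensitive 5 (ABO5) and 9-cis-epoxycarotenoid dioxygenase 2A (NCED 2A) lie below the line at high control levels, and MFT-3B-1 lies above it near a control level of 0.

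MFT-3B-1 differed in the opposite direction to the other members with levels. Its CpG region (3B, 4734475 to 4744197) overlapped the gene on the minus strand and measured 9723 bp. The level was 34.5% in the ultrasound library, against 0.833% in the control library. The ultrasound level was ordinary for the context, as 223 of 480 CpG regions had at least as much, while the control level was among the lowest, as 37 of 480 had as little or less. It was the 48th most positive of 480 CpG differences, and the 14th of the 134 CpG regions whose mean level lay within 10 points of its own. Of CpG regions, 28.3% were higher after ultrasound, and 25.8% were higher by at least 10 points.

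A region near 0% in the control library has no room to be much lower, so a region listed for a difference can hardly be lower. Of the 54 CpG regions with a control level under 5%, MFT-3B-1 included, 52 were higher after ultrasound. The floor and the selection limit what this count can show, and their part in it was not tested. Their median difference was 26.4 points, and the MFT-3B-1 value lies between that median and their maximum of 58.9 points. The 3 CpG regions nearest to MFT-3B-1 in both levels were listed at 0% in the control library. They belonged to Golgin candidate 6 (TraesCS5B02G100400, 34.1% in the ultrasound library), of a family of Golgi proteins, and to TraesCS7D02G476100 (33.9%) and TraesCS2B02G274000 (35.2%), which carried no description.

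The MFT-3B-1 region was unusually long. Of 634 listed CpG regions, 9 were at least as long (1.42%), and the median length was 974.5 bp. Levels in both libraries were given for 5 of these 9, MFT-3B-1 included, of which 3 were higher after ultrasound and 2 lower. Of the 475 shorter CpG regions with levels, 342 were lower (72.0%). The class was cut at the length of MFT-3B-1 itself and is small, so a link of length with direction was not tested. Also higher was the long region 579 bp downstream of a mitochondrial formate dehydrogenase gene (TraesCS4D02G007200). It was at 40.5% in the ultrasound library and 0.323% in the control library. The remaining higher region overlapped a PAP fibrillin domain gene (TraesCS3B02G020500, 97.1% and 22.2%), also on 3B. The long regions that were lower were assigned to genes without a description. For TraesCSU02G021200, on unplaced sequence, the region lay 1525 bp upstream (21.0% in the ultrasound library and 57.0% in the control library). For TraesCS6D02G401800 the region overlapped the gene (a listed 0% and 17.6%). A single level stands for the whole region, and which part of the gene or its surroundings differed cannot be read from the lists.

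MFT-3B-2, the other MFT gene of chromosome 3B, was listed in CHG with a region of 3858 bp (3B, 3865544 to 3869401) that overlapped the gene on the minus strand. No level was given for it in either library, so its direction is unknown. The same was true of 67 of the 1745 CHG regions. Missing levels were more frequent among long CHG regions: at this length or above, 65 of 114 (57.0%) lacked a level in at least 1 library and 30 (26.3%) in both, against 123 of 1631 (7.54%) and 37 (2.27%) of the shorter ones. The MFT-3B-1 and MFT-3B-2 regions lay 865 kb apart and were listed in different contexts, so no value at one can be set beside a value at the other.

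**Figure D3:**
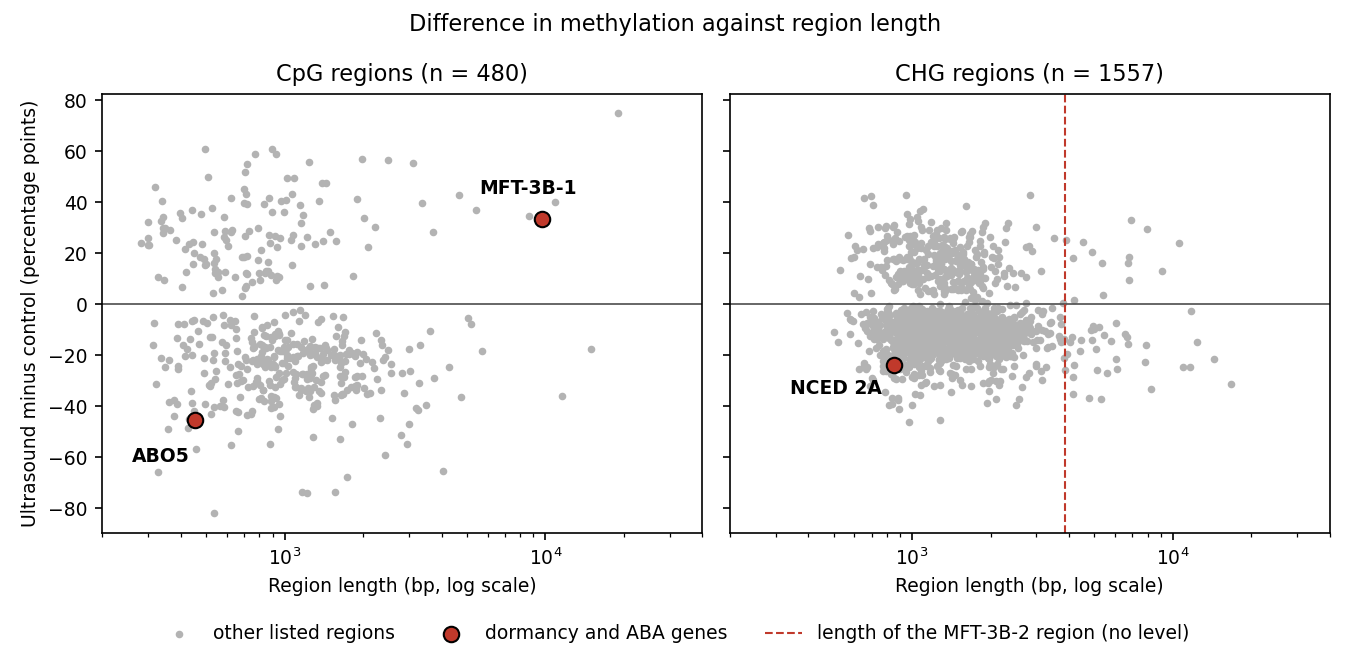
Difference in methylation (vertical axis, ultrasound minus control, percentage points) against region length (horizontal axis, bp, log scale) for CpG and CHG regions with both levels, 1 point per region. MFT-3B-1 stands at 9723 bp with 33.7 points, ABA Overly-Sensitive 5 at 452 bp with -45.5 points and 9-cis-epoxycarotenoid dioxygenase 2A (NCED 2A) at 853 bp with -23.7 points; the dashed line marks the 3858 bp of the MFT-3B-2 region, which has no level.

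No member region had another listed region of any context within 100 kb. Of all 3119 listed regions 28.4% did, and 22.4% had such a region within 10 kb, regions of the same gene included. With only 4 member regions, the lack of neighbours does not set the members apart from that share. The nearest listed region to 9-cis-epoxycarotenoid dioxygenase 2A was a CHG region of TraesCS5A02G373800, 265 kb away, which had no level. The nearest to ABA Overly-Sensitive 5 was a CpG region of TraesCS6D02G178500, 521 kb away, with a listed 0% in the ultrasound library and 4.17% in the control library. For each MFT gene the nearest listed region was that of the other MFT gene. Each member was listed in 1 context only, as were 93.6% of all listed genes.

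A search of the descriptions for other genes of abscisic acid, gibberellin and seed dormancy could reach only the 441 of 2811 listed genes (15.7%) that carry one. Of 28 words for this theme, 6 matched a description, and besides the 4 members they found 2 regions. Globulin 1 (TraesCS1B02G330000), a seed storage protein, had a CHG region overlapping the gene (1B, 555938271 to 555939062) at 11.4% in the ultrasound library and 15.7% in the control library. A dehydrin gene (TraesCS5D02G379300), of a protein family that accumulates in drying seeds and under abscisic acid, had a CHH region 67 bp upstream (5D, 450380527 to 450380922) at 7.92% in the ultrasound library and a listed 0% in the control library. Both differed by less than 10 points, while 60.4% of CHG regions differed by at least that much. In CHH the lower quartile of the absolute differences was 9.81 points. The Globulin 1 region was lower, as were 78.2% of CHG regions, and the dehydrin region was higher, as were 22.9% of CHH regions. Of the 5 regions of this list with levels, 3 were lower and 2 higher, with a median difference of -4.26 points, beside 76.0% lower and a median of -8.87 points over the 404 described regions with levels. Words searched for abscisic acid signalling, such as protein phosphatase 2C and SnRK2, and words for gibberellin and alpha-amylase matched no described region.

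The pentatricopeptide repeat family, to which the Arabidopsis namesake of ABA Overly-Sensitive 5 belongs, gave 4 more regions, in CHG and CHH. Of these, 2 were lower and 2 higher, with a median difference of 3.04 points. Over the 404 described regions with levels, 76.0% were lower and the median was -8.87 points. A CHH region 2978 bp upstream of TraesCS6B02G068600 stood at 36.5% in the ultrasound library and 0.625% in the control library, in a context where 22.9% of regions were higher. A CHG region overlapping TraesCS2D02G294400 was at 20.7% in the ultrasound library and 8.45% in the control library. The CHG regions overlapping TraesCS2A02G289100 (32.5% in the ultrasound library and 44.9% in the control library) and TraesCS3D02G111500 (2.56% and 8.74%) were lower.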

How the data were processed

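Genomic DNA was converted enzymatically (enzymatic methyl-seq), per the labels' protocols; the titles read WGBS. Bismark 0.23.1, Trim Galore 0.6.7 and FastQC 0.11.9 appear, without roles, in the submitters' processing notes; the genome build is not given in the sources used here. Lists for CpG, CHG and CHH were deposited by the authors with methylation levels in percent per region and distances in bp, per the file headers. The authors' file names refer to a chi-square and edgeR selection with unstated thresholds, which can favour large differences, so shares describe listed regions, not the genome.

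Regions were matched to the 4 genes by identifier. Missing levels were left out of directions, ranks and medians. The 95% exact (Clopper-Pearson) interval is printed for the share of CpG regions that were lower; it covers counting error over regions only, and its computation was tested on simulated data. Python 3.11.15, pandas 2.3.3 and scipy 1.17.1 were used. The reference gene table held none of the 4 identifiers.

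The members and word lists were chosen with earlier results of these data known; classes by control level and length were set after the values were seen. Named genes are the members, regions within 100 kb, the word-list genes (up to 20; the 5 largest differences for pentatricopeptide repeats) and, per member, the 3 nearest regions by Euclidean distance of both levels. The nearest listed regions beyond 100 kb and the other long regions were named after their values were seen. Alternatives were other difference thresholds, windows, scales and position classes.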

Additional observations from a re-analysis of the deposited data

How the results depend on the processing

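No alternative was run on the members' differences themselves, which are the deposited levels subtracted; the alternatives concern their standing among other regions. Of 22 alternative values, 8 stayed near the value reported and 14 did not. Near meant within 1.5 times for counts above 0, the same number for the count of neighbours, and inside the 95% interval over regions for shares, percentages and medians. Ranked by log2 ratio, the percentage of regions at or below the member was 66.3 for 9-cis-epoxycarotenoid dioxygenase 2A (6.94 by points), 41.2 for ABA Overly-Sensitive 5 (4.58) and 95.2 for MFT-3B-1 (90.2); among CHG regions of similar mean level it was 21.1 for 9-cis-epoxycarotenoid dioxygenase 2A. A threshold of 25 points was passed by 232 CpG regions, against 437 at 10 points, and by 152 CHG regions, against 941. All members with levels but 9-cis-epoxycarotenoid dioxygenase 2A passed it. The share of CHG regions that were lower was 72.5% among differences of at least 10 points, 55.3% at 25 points and 73.3% upstream of genes. Mean differences were -10.5 points in CpG and -6.04 in CHG. Within 1000 kb, 4 listed regions lay near a member, the MFT regions themselves included, and 2 of them had levels. Each member region had a listed neighbour at this window, as did 52.8% of all 3119 listed regions. With only 4 member regions, this does not set the members apart. With overlapping regions only, 1 region was higher in the abscisic acid list and 1 in the pentatricopeptide list. Counting each neighbouring gene once gave no value, as no region lay within 100 kb. No paired analysis was possible because levels of 1 library per group were analysed, and no replicate could be left out. Unknown read depth limits every value here.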
